A study of Rattus norvegicus with 6 samples.

Results

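The genes of the serine/arginine-rich (SR) splicing factors were examined in heart cells of newborn rats. Their members were Srsf1, Srsf2, Srsf3, Srsf4, Srsf5, Srsf6, Srsf7, Srsf9, Srsf10 and Srsf11, taken as the rows of the gene count table that carry one of these 10 names together with every added row that overlaps one of them on the same strand. An added row is a transcribed region that the authors placed beside the annotated genes and that has an identifier but no gene name. The rule gave 10 annotated rows and 9 added rows, which is 19 of the 43035 rows in the table. The cells were primary cardiomyocytes isolated at postnatal day 1 from Sprague-Dawley rats. One group of 3 libraries received a scramble siRNA (si-NC), and the other group of 3 libraries received an siRNA against DYRK1A (si-DYRK1A), with RNA collected after 48 h in both. Both groups were grown in serum-containing medium and transfected, and no untransfected group was analysed here.

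SR proteins bind exons through RNA recognition motifs and recruit the spliceosome through a tail rich in arginine and serine dipeptides. Phosphorylation of that tail by SRPK kinases in the cytoplasm and by CLK kinases in the nucleus sets where the proteins reside and how active they are, and DYRK1A, a kinase of the same wider family, also phosphorylates SR proteins. Many SR genes limit their own output through a poison exon, an alternative exon whose inclusion brings a premature stop codon and decay of the mRNA. In the heart, Srsf1 and Srsf10 are known for splicing of transcripts for calcium-handling proteins. RNA levels per gene, as measured here, report neither the phosphorylation of these proteins nor which exons were included.

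The libraries held 10325074 to 11921772 counts with si-NC and 10703229 to 11723974 with si-DYRK1A. The Dyrk1a locus did not check the labels, since it was at 77.84 ± 3.12 CPM (counts scaled to library size, SD, n = 3) with si-NC and 82.50 ± 2.77 (n = 3) with si-DYRK1A, with a log2 fold change of 0.08 (edgeR, adjusted p = 0.377). Of its counts, 5430 lay in an added row over the gene and 7 in the annotated row. The study reported knockdown at the protein level, by immunoblot of neonatal cardiomyocytes, which RNA counts do not measure. As the RNA gave no check, the treated samples are called libraries labelled si-DYRK1A. Of 10 cardiomyocyte markers, 5 passed the filter on low counts, Actc1, Actn2 and Tnnt2 among them, while the annotated rows of Myh6, Myh7, Tnni3 and Myl2 were at 0 in every library. With its added row Myl2 had 50 to 79 counts per library. Marker sums were taken over annotated rows alone, so genes counted elsewhere are missing and sums of different lists cannot be compared. The summed CPM for cardiomyocytes was 13570 to 14000 with si-NC and 14680 to 15110 in the libraries labelled si-DYRK1A. For fibroblasts, where Pdgfra was at 0, it was 21530 to 26240 and 20370 to 21110. Of the 6 fibroblast markers tested, the 2 that edgeR called, Lum and Postn, were higher, against the direction of the sum. Of the 5 cardiomyocyte markers tested, edgeR called 3 higher and 0 lower. Of the 5 endothelial markers tested, edgeR called 2 lower and 0 higher. Over all rows 8.03% were called higher and 7.19% lower. For endothelial cells the sums were 132.8 to 147.6 and 105.8 to 116.1. The part of cell composition in the values below was not tested, and in bulk RNA fewer cells of a type and less RNA per cell cannot be told apart.

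Most SR genes were counted in added rows and not under their own names. The annotated rows of Srsf2, Srsf4, Srsf6, Srsf7, Srsf10 and Srsf11 held 0 counts in all libraries, and all counts of these 6 loci lay in the added row that covers 100% of the gene. Srsf9 was the only member with no added row on its strand. The added rows over Srsf3 and Srsf5 were at 0, and Srsf1 had 98.2% of its counts in the annotated row and 15 to 24 counts per library in the added one. Of the 19 rows, 11 passed the filter on low counts, 4 of them annotated. Of these 4, Srsf9 alone was called under its own name, lower in the libraries labelled si-DYRK1A, beside 7.19% of all rows called lower. The pattern was not particular to SR genes, because added rows overlapped 7379 of 22250 protein-coding genes (33.2%) on the same strand. Of the 5175 overlapped genes with at least 60 counts at the locus, 54.8% had under 1% of their counts in the annotated row and 8.81% had over 99%.

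**Figure D1:**
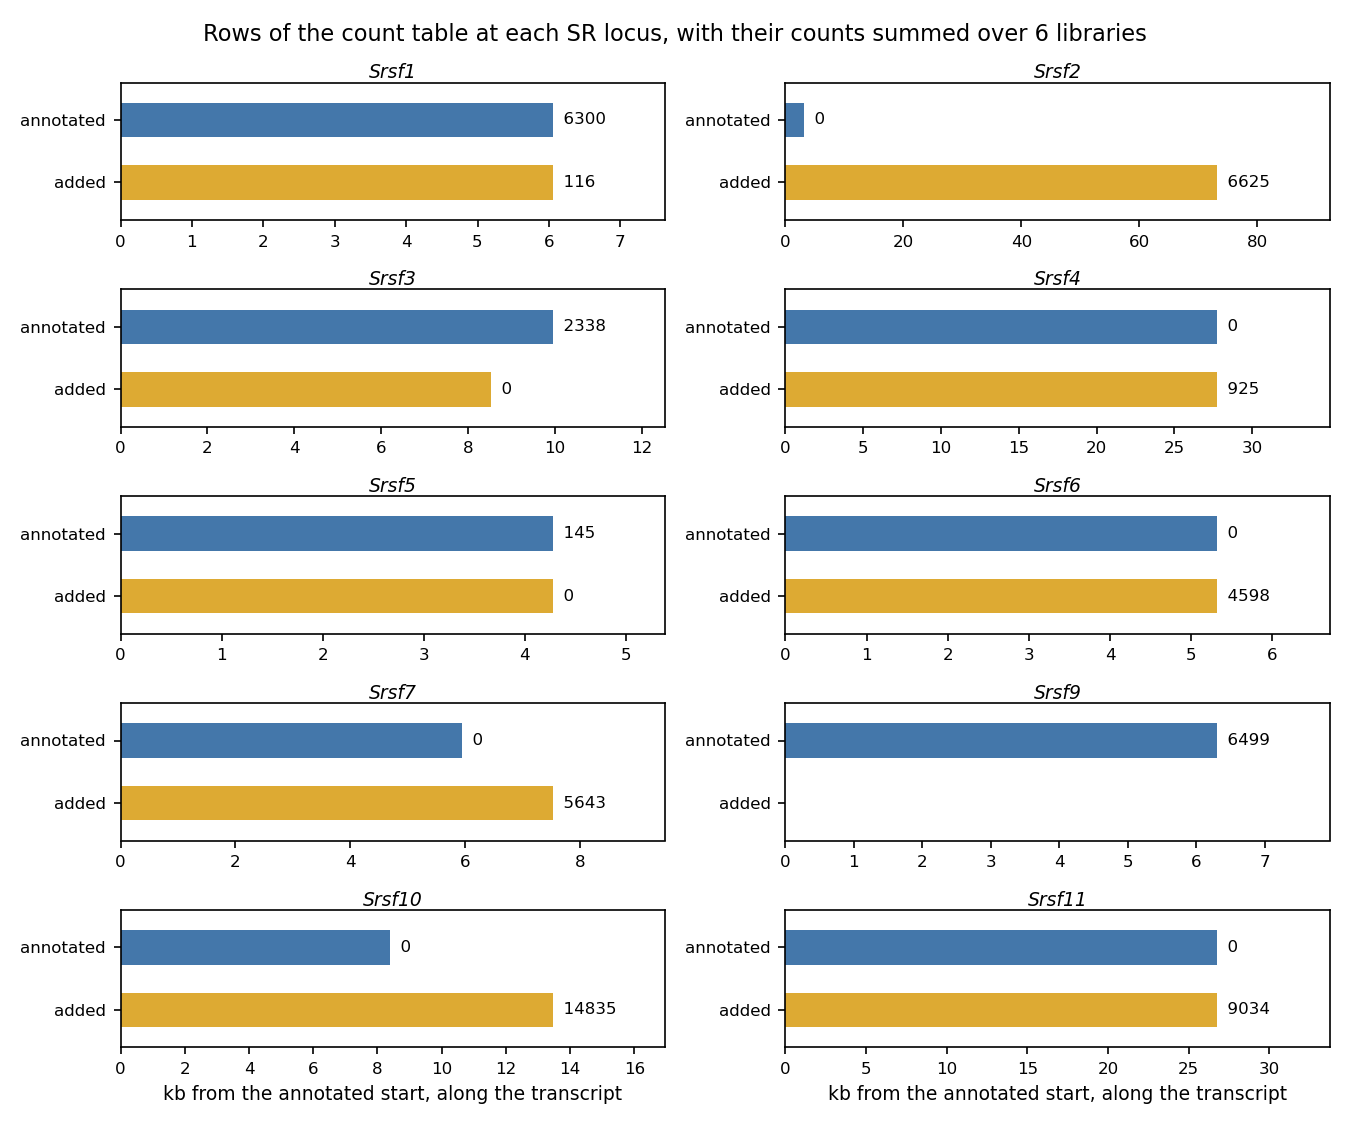
Extent of each annotated SR gene and of the added rows on its strand, by position relative to the start of the gene, with the counts of each row. Counts lie in the annotated row for Srsf1, Srsf3, Srsf5 and Srsf9 and in the added row for the other 6 members.

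For each member, the counts of the annotated row and of the added rows on its strand were therefore summed, and this sum is called a locus. The added row at Srsf2 is the least specific, as it spans 73250 bases on chromosome 10 (105722709 to 105795958, minus strand, Rnor_6.0) and also overlaps Jmjd6, Mxra7 and St6galnac1 on that strand and Mettl23 on the other. Jmjd6 itself was at 0 counts. The added row at Srsf10 (chromosome 5, 154205402 to 154218853) reaches beyond the annotated end of the gene at 154213801. It overlaps Pnrc2 on the opposite strand at its last bases alone, as the listed extent of Pnrc2 starts at 154218852. The row of Pnrc2 itself rose (log2 fold change 0.24, edgeR, adjusted p = 0.00167). How the counting used strand is not given in the sources. Where rows share bases, reads of a neighbour therefore cannot be told apart from those of the SR gene.

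Levels between genes were compared as FPKM, which divides by the length listed for the row that holds the counts. With si-NC the order ran from Srsf9 at 93.4 ± 9.80 FPKM (SD, n = 3) through Srsf2 at 30.8 ± 1.83, Srsf10 at 23.6 ± 1.27, Srsf1 at 17.9 ± 2.14, Srsf7 at 16.7 ± 0.461, Srsf11 at 14.5 ± 0.776 and Srsf6 at 14.3 ± 0.592 down to Srsf3 at 6.33 ± 0.611, Srsf4 at 3.58 ± 0.502 and Srsf5 at 1.76 ± 0.408. Neighbours in this order were apart in all libraries of both groups except Srsf1 and Srsf7, and Srsf11 and Srsf6, whose ranges overlapped. Listed lengths run from 1096 bases for Srsf9 to 9259 for the added row at Srsf11, and the place of a gene in the order depends on them. Srsf9 is also the member with no added row. Some other splicing genes, among them Hnrnpab and Hnrnpr, stayed at 0 counts in every library with their added row summed in. Whether reads of SR genes were likewise missing from both rows was not tested, so the order describes rows. By counts alone the largest locus was Srsf10, with 25.4% to 26.8% of the summed CPM of the 10 loci, followed by Srsf11 with 14.7% to 16.8%. Srsf5 gave 0.203% to 0.302%.

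**Figure D2:**
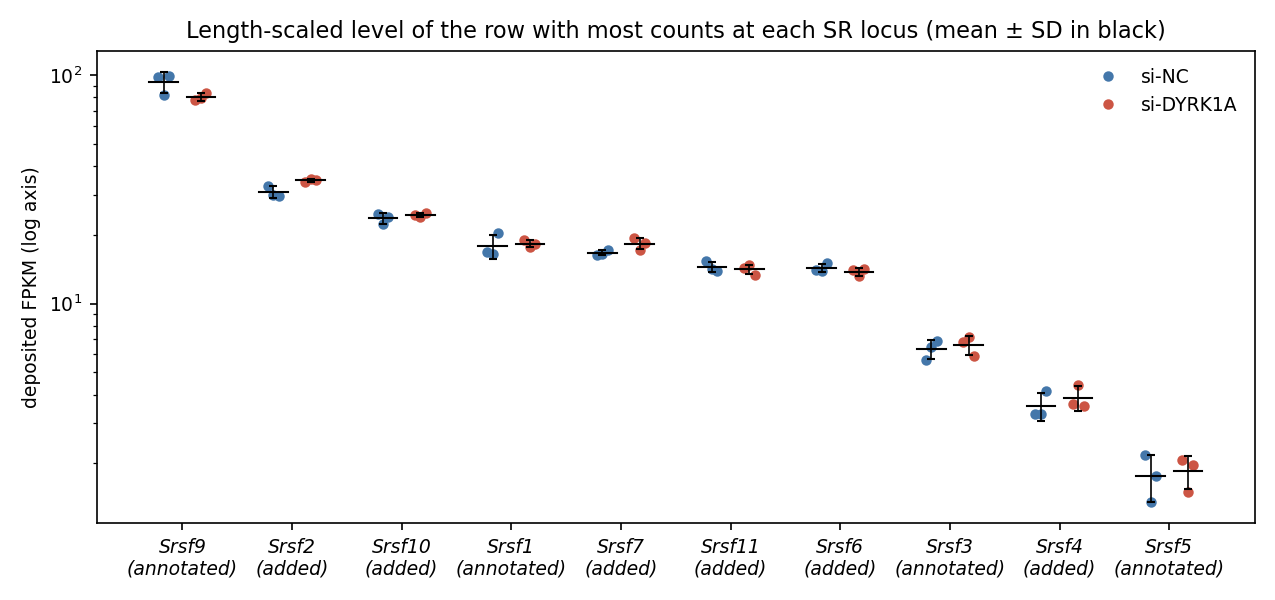
FPKM of the row that holds the counts of each SR gene, on a log axis, with 1 point per library and the mean of each group. Srsf9 lies highest, at 78 to 99.3 FPKM over the 6 libraries, and Srsf5 lowest, at 1.36 to 2.17.

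The comparison of the libraries labelled si-DYRK1A with si-NC asked whether the RNA of the SR genes changed when the siRNA against a kinase of their proteins was given. The locus of Srsf2, whose row also covers other genes, rose, Srsf9 fell, and the other 8 loci did not pass the test. Both changes were small, at 1.13-fold for the Srsf2 locus and 0.863-fold for Srsf9. Thus 2 of 10 loci were called by edgeR at an adjusted p below 0.05, beside 15.2% of the 15512 features tested in the same fit, and this share is too close to the background to be a result about the members. The median absolute log2 fold change was 0.07 over the 10 loci and 0.18 over all features, which were not matched to the loci by count. Of the 10 loci, 7 had a log2 fold change above 0, beside 50.4% of all features. The median of the loci was 0.06, beside 0.002 for all features. The groups did not overlap for 2 loci, Srsf2 and Srsf7, while 31.5% of all features were apart in this sense.

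**Figure D3:**
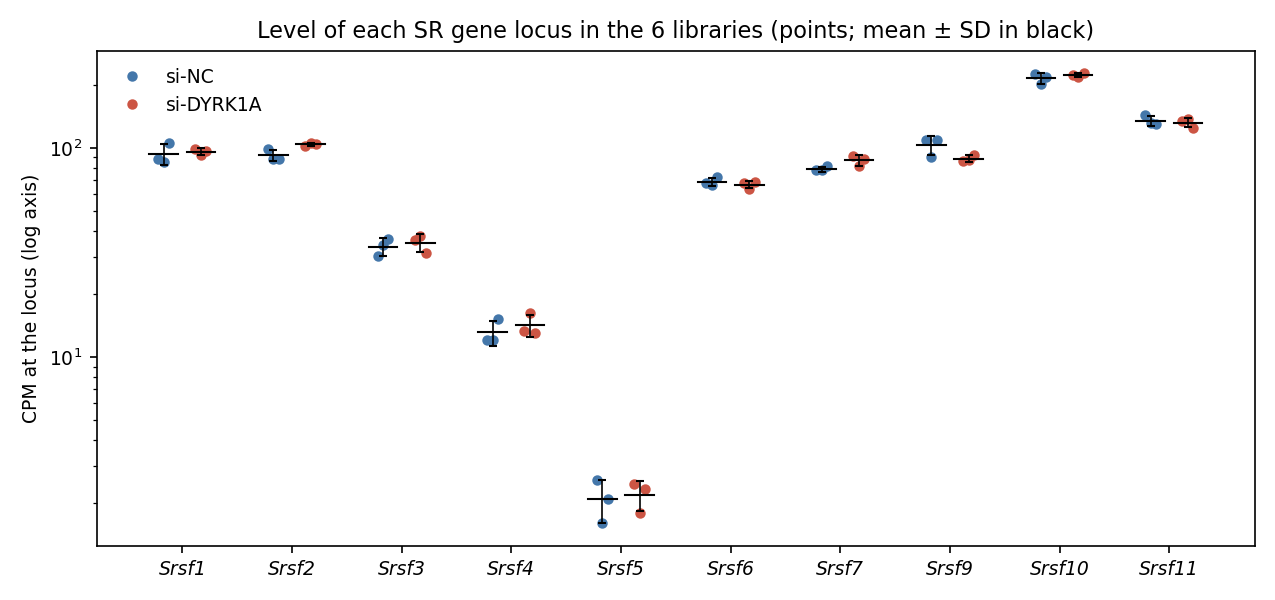
CPM of each SR locus in the 6 libraries, with 1 point per library and the mean and SD of each group. The groups are apart for Srsf2 and Srsf7 and overlap for the other 8 loci, Srsf9 included.

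Srsf9 encodes a short SR protein that can act as an activator or a repressor of exons. The gene lies on the minus strand of chromosome 12 (47039716 to 47046022, Rnor_6.0). Its locus was at 109.3, 90.23 and 109.5 CPM with si-NC and at 86.28, 87.58 and 92.78 CPM in the libraries labelled si-DYRK1A. Replicates 1 and 3 of si-NC lay above all others, whereas replicate 2 lay below replicate 3 of the treated group, so the groups overlapped. On the log2 scale the locus fell by 0.21 (SE 0.0678, 95% interval −0.35 to −0.07, edgeR, adjusted p = 0.0426). By exact permutation over libraries (two-sided) p was 0.2, and 3 libraries against 3 cannot go below 0.1. The call was lost when si-NC replicate 1 (edgeR, adjusted p = 0.174), si-NC replicate 3 (0.126) or si-DYRK1A replicate 1 (0.165), 2 (0.157) or 3 (0.0578) was left out, and also with DESeq2 (adjusted p = 0.0646).

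Srsf2 encodes a protein long used as a marker of nuclear speckles, where splicing factors gather. The annotated gene lies on the minus strand of chromosome 10 (105792779 to 105795958). Its locus was at 98.57, 88.54 and 88.71 CPM with si-NC and at 102.3, 105.5 and 104.4 CPM in the libraries labelled si-DYRK1A. All treated libraries lay above all controls, and si-NC replicate 1 was the nearest of them. The log2 fold change was 0.18 (SE 0.0547, 95% interval 0.07 to 0.29, edgeR, adjusted p = 0.0287), and exact permutation over libraries gave p = 0.1, its lower limit. The call was lost without si-NC replicate 2 (edgeR, adjusted p = 0.103) or 3 (0.115), without si-DYRK1A replicate 1 (0.0522), 2 (0.126) or 3 (0.0986), with DESeq2 (0.0952), and with library size as the sole scaling (0.0653). Because the row also covers other genes, the value belongs to the region. Rows of their own gave log2 fold changes of −0.23 for Mxra7 (edgeR, adjusted p = 0.423) and −0.26 for Mettl23 (0.302). No value is left for Srsf2 when added rows over other annotated genes are set aside.

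Srsf7, whose protein has a zinc knuckle next to its RNA recognition motif and also serves in mRNA export, had values close behind. Its locus (chromosome 6, 2880518 to 2886465, minus strand) was at 77.95, 77.97 and 81.69 CPM with si-NC and at 91.65, 81.93 and 88.19 CPM in the libraries labelled si-DYRK1A. The groups were apart by a margin of 81.69 against 81.93 CPM. The log2 fold change of 0.14 (SE 0.058, 95% interval 0.02 to 0.26) did not pass (edgeR, adjusted p = 0.116, unadjusted p = 0.0252), nor did it pass in any alternative, where adjusted p ran from 0.0872 to 0.337.

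The genome upstream of these 3 genes is shown because they had the smallest p of the members. The stretches are the 150 bases before the RefSeq start in GRCr8, a later build than the one of the count table, written 5′ to 3′ on the strand of the gene. Capitals mark matches on either strand to 3 motifs. The motif of Sp1 family factors is GGGCGG, called GC box. The motif of the factor NF-Y is the pentamer CCAAT. The motif bound by TBP is spelled TATAAA, called TATA box. For Srsf2 the pair of GC boxes nearest the start overlap. The places are chr10:102554142-102554291 on the minus strand for Srsf2, chr6:20563902-20564051 on the plus strand for Srsf7 and chr12:46945148-46945297 on the minus strand for Srsf9. The strand listed for Srsf7 differs between the builds, as it is plus in GRCr8 and minus in the count table.
Srsf2: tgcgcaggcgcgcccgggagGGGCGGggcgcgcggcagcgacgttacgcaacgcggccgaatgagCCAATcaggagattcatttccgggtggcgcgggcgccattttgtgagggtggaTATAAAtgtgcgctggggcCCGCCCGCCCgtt
Srsf7: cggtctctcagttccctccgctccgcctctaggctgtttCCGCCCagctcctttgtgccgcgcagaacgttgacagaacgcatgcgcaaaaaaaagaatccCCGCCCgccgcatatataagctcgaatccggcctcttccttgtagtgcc
Srsf9: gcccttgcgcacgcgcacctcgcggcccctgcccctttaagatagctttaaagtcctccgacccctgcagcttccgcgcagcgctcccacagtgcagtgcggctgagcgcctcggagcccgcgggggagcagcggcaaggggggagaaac

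Srsf2 held GC boxes beginning 130, 13 and 9 bases before the start, a CCAAT motif 85 and a TATA box 32 bases before it. Srsf7 held GC boxes 111 and 49 bases before the start, and the printed stretch of Srsf9 held none of these letters. Only exact letters were searched. The Srsf7 stretch also holds TATATAA, which differs from TATAAA and was not counted as a TATA box. Over the 300-base windows from 250 before to 50 after the start, RefSeq lists 11 promoters for the 10 members, with Srsf10 listed at 2 starts. A GC box was present in 8 of these 11 and in 33.1% of all 33469 windows, a CCAAT motif in 5 of 11 and 37.5%, and a TATA box in 3 of 11 and 14.2%. The windows with a TATA box are those of Srsf2, Srsf3 and the second listed start of Srsf10. The letters CCGGAAG, read by ETS factors, were in 4 of 11 and 8.75%. The median GC content was 68.3% for the members and 51.7% for all windows, and the median number of CpG sites was 33 and 7. A match describes letters and is not a site of binding.

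Of the remaining members, Srsf10 had the fold change with the smallest SE (0.048). Its protein turns into a general repressor of splicing when it loses its phosphates. The locus was at 225.7, 201.9 and 218.1 CPM with si-NC and at 222.5, 219.2 and 227.4 CPM in the libraries labelled si-DYRK1A. The groups overlapped, and the log2 fold change was 0.05 (95% interval −0.05 to 0.15, edgeR, adjusted p = 0.531). Srsf11, an SR-related protein that binds the U2AF splicing factor, was at 143.7, 132 and 129.5 CPM against 134.2, 137 and 125, with a log2 fold change of −0.03 (95% interval −0.14 to 0.08, adjusted p = 0.759).

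Srsf1, the founding member of the family and a shuttling protein with roles from splicing to translation, was at 88.21, 86 and 105.6 CPM with si-NC. It was at 99.12, 92 and 96.24 CPM in the libraries labelled si-DYRK1A. The treated values lay between the lowest and the highest control, with a log2 fold change of 0.04 (95% interval −0.11 to 0.18, edgeR, adjusted p = 0.781). Srsf6, a regulator of exon choice in many tissues, was at 67.89, 66.72 and 72.16 CPM against 67.72, 63.75 and 68.46, with a log2 fold change of −0.05 (95% interval −0.18 to 0.08, adjusted p = 0.673).

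The 3 loci with the fewest counts had the widest intervals. Srsf3, the smallest SR protein and an adaptor for mRNA export, was at 30.30, 34.16 and 36.62 CPM against 36.32, 38.04 and 31.42 (log2 fold change 0.06, 95% interval −0.13 to 0.25, edgeR, adjusted p = 0.713). Srsf4, whose arginine- and serine-rich tail is long, was at 12.08, 12.01 and 15.22 CPM against 13.37, 16.20 and 13.07 (0.11, −0.16 to 0.38, adjusted p = 0.63). Srsf5, known as an early-response gene in several cell types, had 19 to 28 counts per library, and its 95% interval ran from −0.54 to 0.69 around a log2 fold change of 0.08 (edgeR, adjusted p = 0.904).

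**Figure D4:**
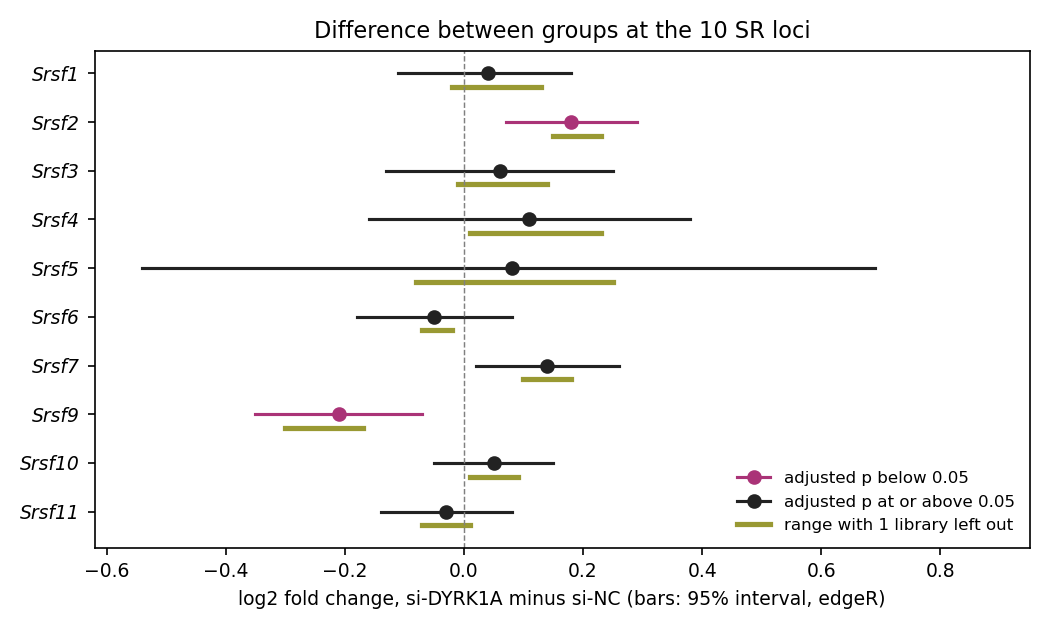
Log2 fold change of each SR locus, si-DYRK1A minus si-NC, with the 95% interval from edgeR. The intervals of Srsf2, Srsf7 and Srsf9 exclude 0, and after adjustment Srsf2 and Srsf9 stay below 0.05.

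Summed over the 10 loci, the SR genes were at 856.4, 791.1 and 859.1 CPM with si-NC and at 855.9, 843 and 849.3 CPM in the libraries labelled si-DYRK1A. The means were 835.5 ± 38.5 (SD, n = 3) and 849.4 ± 6.48 (n = 3), a log2 ratio of 0.02. The treated libraries lay inside the range of the controls.

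The genes that act with SR proteins were read from 6 lists with 123 symbols, of which 119 were in the table. Under their own names 49 were tested, namely all 33 that no added row overlapped and 16 of 86 that one did. By edgeR 5 of the 49 rose, beside 8.03% of all rows that were higher. After the data had been seen, added rows that cover at least 50% of a list gene and no other annotated gene on its strand were summed with it. Of the 90 then tested, 12 rose and 1 fell, beside 15.2% of all features called in either direction and 8.02% called higher in that fit. The medians of the 6 lists in that fit ran from 0.07 to 0.24 on the log2 scale, with 0.002 over all features. Under their own names the medians ran from −0.02 for SR-related proteins to 0.30 for heart and muscle regulators, where 1 gene was tested.

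Clk1, a nuclear kinase of SR proteins, had the lowest p of these genes. All its counts lay in the added row over the gene on chromosome 9 (65296778 to 65307995). It was at 34.33, 36.11 and 42.56 CPM with si-NC and at 52.16, 58.00 and 56.08 CPM in the libraries labelled si-DYRK1A, so all treated libraries lay above all controls. The log2 fold change was 0.55 (SE 0.0818, edgeR, adjusted p = 5.55e-05), and the call held in all 10 alternatives run for it. The other CLK kinases did not pass, with log2 fold changes of 0.45 for the added row at Clk2 (edgeR, adjusted p = 0.0749), which also covers Fam189b, 0.10 for Clk3 (0.635) and −0.02 for the added row at Clk4 (0.908), which also overlaps a 7SK gene. Whether Clk1 differed from the other kinases was not tested. Of the 13 kinases, phosphatases and transport genes tested, Clk1 was the one called, beside 15.2% of all features called in either direction.

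Among SR-related proteins, 2 of 18 were called, beside 15.2% of all features. Rbm39, a cofactor of the U2AF splicing factor, fell from 28.35 ± 4.36 CPM (SD, n = 3) to 22.15 ± 2.76 (n = 3), by 0.35 on the log2 scale (edgeR, adjusted p = 0.0435), although the groups overlapped. The call was lost in 5 of 10 alternatives, namely DESeq2 and leaving out si-NC replicate 1 (log2 fold change −0.23) or 3 or si-DYRK1A replicate 2 or 3. Bclaf1, an SR-like factor, rose by 0.41 in its annotated row (adjusted p = 0.004). A added row inside the same gene held 9528 counts against 1792 in the annotated row, with a log2 fold change of 0.03 (adjusted p = 0.733), so the direction holds for the smaller share of the reads at that gene.

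Of 17 hnRNP genes, whose products often oppose SR proteins at exons, 3 rose, beside 8.02% of all features called higher. Hnrnpdl went from 98.38 ± 8.80 to 125.4 ± 5.88 CPM (SD, n = 3 each, log2 fold change 0.35, edgeR, adjusted p = 0.000407). Hnrnpk went from 166.1 ± 7.55 to 199.6 ± 9.81 CPM (0.26, adjusted p = 0.000842). Hnrnpa2b1 went from 545.9 ± 40.4 to 620.6 ± 29.6 CPM (0.19, adjusted p = 0.0194), a call that 4 of 10 alternatives lost, each leaving out 1 library (si-NC replicate 1 or 2, or si-DYRK1A replicate 1 or 2). The groups were apart for all 3, beside 31.5% of all rows, but the 3 had been picked by p from the same values.

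Of 6 splicing regulators of heart and muscle that could be tested, 3 rose, beside 8.02% of all features called higher. Celf1, which acts in the fetal splicing programme of the heart, went from 222.3 ± 5.87 to 254.8 ± 6.02 CPM (SD, n = 3 each, log2 fold change 0.20, edgeR, adjusted p = 0.00372). Rbpms, an RNA-binding protein of cardiac and smooth muscle, went from 147.4 ± 9.51 to 178.5 ± 10.9 CPM (0.28, adjusted p = 0.00151). Rbm24, a muscle splicing factor, had few counts and went from 2.177 ± 0.308 to 3.773 ± 0.864 CPM (0.79, adjusted p = 0.0418), and 7 of 10 alternatives lost that call, among them leaving out any library except si-DYRK1A replicate 2. The sum of the cardiomyocyte markers was also higher in the libraries labelled si-DYRK1A, and its part in these values was not tested.

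Of 25 core spliceosome genes tested, 3 rose, namely Snrpc of the U1 particle (log2 fold change 0.30, edgeR, adjusted p = 0.00207), Snrpd3 of the Sm ring (0.21, adjusted p = 0.0183) and Cdc5l of the Prp19 complex (0.15, adjusted p = 0.0303), beside 8.02% of all features called higher. The Cdc5l call was lost in 12 of 15 alternatives, among them leaving out any library except si-NC replicate 2. The Snrpd3 call was lost in 8 of 15, among them leaving out any library except si-NC replicate 3, and its log2 fold change was 0.13 without si-NC replicate 2. Of 11 genes of nonsense-mediated decay and the exon junction complex, Upf1 was the one called, beside the same 8.02%. Nonsense-mediated decay removes transcripts with poison exons. The Upf1 locus rose from 20.76 ± 1.62 to 27.98 ± 2.55 CPM (SD, n = 3 each, log2 fold change 0.43, edgeR, adjusted p = 0.00408). Its added row held 1540 counts (0.46, edgeR, adjusted p = 0.00386) and overlaps Gdf1 and Cers1 on the opposite strand. Its annotated row held 110 counts, with a log2 fold change of −0.03 (edgeR, adjusted p = 0.97). Whether reads of these neighbours enter the value was not tested. For all 4 genes every treated library lay above every control, while the groups were apart for 31.5% of all rows. As the genes were picked by p from the same values, this adds no support.

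**Figure D5:**
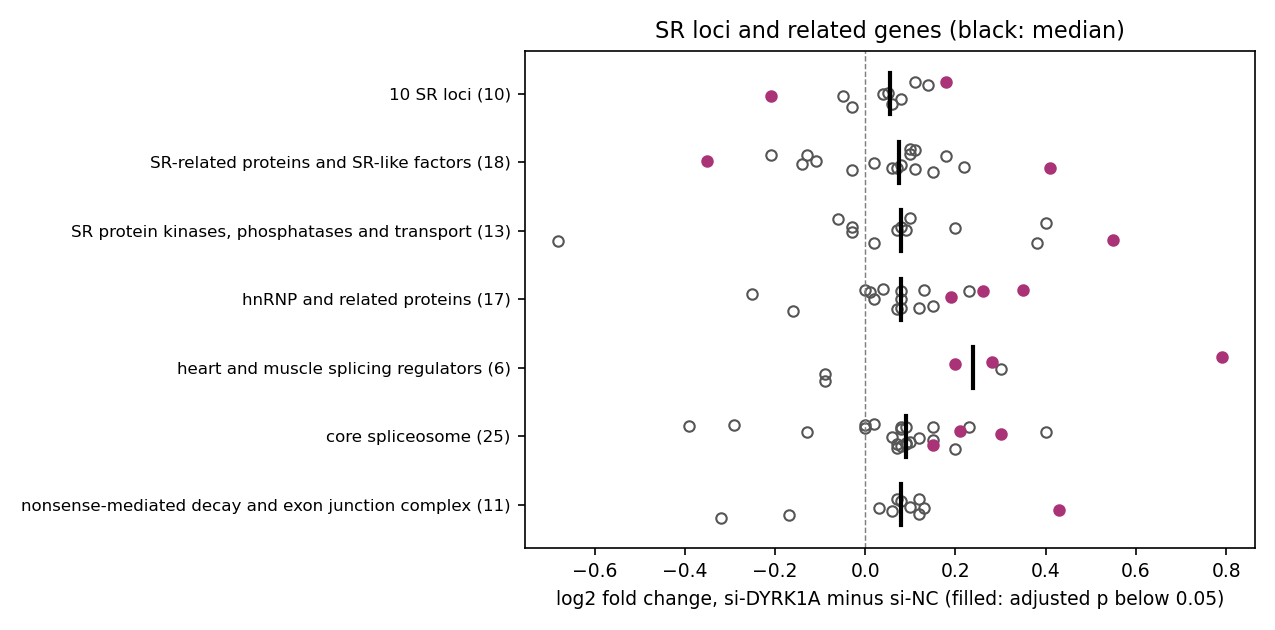
Log2 fold change, si-DYRK1A minus si-NC, of the 10 SR loci and of the tested genes of the 6 related lists with added rows added, where each circle is a gene, filled if the adjusted p from edgeR is below 0.05, and the bar is the median of the list. The SR loci lie between −0.21 and 0.18, and Clk1 at 0.55 and Rbm24 at 0.79 lie farthest to the right among the filled circles.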

How the data were processed

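RNA-seq was performed on 6 libraries, 3 per group. The authors deposited raw counts per gene together with FPKM values, which scale counts by listed length and library. The study's methods name HISAT2 and Rnor_6.0, and the submitters' processing notes name Bowtie 0.12.2 and the mouse build mm8. Library kits also differ between these sources. Since the identifiers are of rat genes, positions were taken as Rnor_6.0. The counting tool, use of strand and treatment of multi-mapped reads are not named in those sources. Groups came from the labels. Counts were tested with the quasi-likelihood test of edgeR 4.0.16 (R 4.3.3, TMM, robust fit, filterByExpr with a minimum count of 10), two-sided, with Benjamini-Hochberg adjustment over all features and a threshold of 0.05. CPM values use TMM-scaled totals of the filtered table. Overlaps were found with GenomicRanges 1.54.1. Single loci were also compared by exact permutation tests. Alternatives were DESeq2 1.42.0, RLE or library-size scaling, other filters, a replicate block, each library left out, other row rules, and limma 3.58.1 on log2(FPKM + 1) or log2(FPKM + 0.1). On counts simulated for si-DYRK1A against si-NC (15513 features, 200 changed), edgeR recovered 82.8% of changes of 1 and 47.5% of changes of 0.5 on the log2 scale, with 4.69% false calls. The simulation gave every feature the same variability between replicates and held no smaller changes. These rates therefore need not hold for the calls above. The genes named are all members, the called list genes, Dyrk1a and Clk1 to Clk4. Members and lists were chosen with earlier results of these data known. Samples were labelled biological replicates.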

Additional observations from a re-analysis of the deposited data

How the results depend on the processing

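The 2 called SR loci were sensitive to the processing. DESeq2 called 0 (2 at an unadjusted p below 0.05, and no adjusted p for Srsf5), library size as the sole scaling 1, the annotated row alone 1, and added rows that cover at least 50% of the gene and no other annotated gene 1, and 0 to 1 were called with a library left out. Under their own names 1 SR gene was called, against 0 with DESeq2 and 0 in each limma setting on FPKM (1 at an unadjusted p below 0.05 in each), and 0 to 1 with a library left out. Features called numbered 2360 with edgeR, 1614 to 2210 with a library left out, and 1199, 1180 and 591 with limma on log2(FPKM + 1), log2(FPKM + 0.1) and log2(FPKM + 1) without a filter on low values. List genes called under their own names numbered 5 with edgeR, 3 to 7 with a library left out, 2, 2 and 0 in these limma settings (10 at an unadjusted p below 0.05 in the last), and 13 with added rows summed in. Signs turned only with a library left out, over ranges of −0.02 to 0.14 for Srsf1 (−0.02 to 0.13 for its locus), −0.01 to 0.14 for Srsf3, −0.08 to 0.25 for Srsf5 and −0.07 to 0.01 for Srsf11. The cause of these differences was not tested.

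No pairing by replicate number was seen, as deviations of same-numbered libraries correlated at 0.06, −0.03 and 0. These values cannot show whether same-numbered libraries shared a cell preparation. With the replicate block 2269 features, 2 SR loci, 1 SR gene and 5 list genes were called, and Cdc5l (edgeR, adjusted p = 0.0667) and the Rbm24 locus (0.0563) lost their calls. Low counts limit Srsf5, at 19 to 28 per library, most, and 3 counts correspond to 0.251 to 0.288 CPM.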
